A study of Heterocephalus glaber with 3 samples.

Results

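The 8 genes described here handle lipid in macrophages or, in the case of CYP7A1, make bile acids from cholesterol. They are GPNMB, LPL, CTSD, FABP5, Apoe, PLA2G15, LGALS3 and CYP7A1, and each was taken by its symbol from a feature list of 23189 entries, of which 11611 carry no symbol. The set was put together because earlier results on these cells had shown several of its genes high in macrophages. The genes were thus chosen by their measured levels across these cell types, and those levels are a description and carry no test. All 8 symbols also matched a RefSeq gene of the species.

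Tumours of the lung from 3 animals of Heterocephalus glaber, the naked mole-rat, were profiled by single-cell RNA sequencing with droplet 3' chemistry, with 1 library per animal. All 3 animals form a single group: adenoviral delivery of CRISPR reagents had produced an Eml4-Alk inversion and Rb loss, among the edits made, and lungs were taken 15 weeks after infection. Tumour was separated from normal lung by hand. No untreated animal is among the samples, so every comparison is between cells of the same animals, and values are given for animals 1, 2 and 3 in that order.

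Macrophages take up lipoproteins, dying cells and, in the lung, surfactant, and break them down in lysosomes. The freed fatty acids are bound by small carrier proteins, stored in droplets or oxidised, while cholesterol is esterified or passed out to lipoproteins under control of LXR receptors. CYP7A1, cholesterol 7-alpha-hydroxylase, is the rate-limiting enzyme of the classical route of bile acid synthesis and is known as a hepatocyte enzyme in human and mouse.

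After filtering, 7927, 8883 and 7770 cells remained, 24580 in all, with 28 clusters drawn without the 8 genes and without the lipid gene lists. Library totals were 76093932 to 91949365 transcript counts (unique molecular identifiers, UMIs). The libraries shared 24, 21 and 31 cell barcodes in pairs and were counted as 3 samples. Clusters 5, 6, 7, 12 and 13 were called monocyte or macrophage-like and held 7090 cells (1983, 2503 and 2604), 28.8% of cells and 35.4% of UMIs. C1QA, a complement gene of macrophages, was seen in 96.0%, 93.7% and 88.6% of the cells of clusters 7, 12 and 13, and MRC1, the mannose receptor, in 89.8%, 96.7% and 93.1%. The names of these 3 clusters rest on a rule that was loosened after the clusters had been seen. Under the stricter rule they stay unnamed, because osteoclast markers also scored in cluster 7 and neutrophil markers in clusters 12 and 13. The neutrophil collagenase MMP8 stood at 75.1 CPM (UMIs of a gene on a counts-per-million scale) in cluster 12 and 90.3 CPM in cluster 13, against 234 CPM in neutrophil-like cells. The neutrophil receptor gene CSF3R stood at 3.78 CPM in cluster 12 and 4.75 CPM in cluster 13, against 234 CPM in neutrophil-like cells. Of the 20 macrophage markers 11 were measured under their symbols. VCAN, FCN1 and VSIG4 stood at 56.9, 16.1 and 0.283 CPM in cluster 12 and at 51.9, 18.1 and 1.62 CPM in cluster 13. Over all cells they stood higher, at 87.4, 33.3 and 2.56 CPM. The rest of the 11 stood above their all-cell level in both clusters. C1QA was at 921 and 962 CPM there, against 605 CPM over all cells and 2859 CPM in cluster 5.

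In these tumours 6 of the 8 genes were higher in macrophage-like cells than in all other cells in 3 of 3 animals, while FABP5 and Apoe were lower in 3 of 3. Levels in CPM are the UMIs of a gene over all UMIs, summed over the cells of a cluster or class in each animal. Over all 15016 genes tested in this contrast, edgeR called 23.3% higher and 30% lower in macrophage-like cells. A call by edgeR is a different measure from the same sign in 3 of 3 animals. The share of all genes with such a sign, or without overlap, is not given here. FABP5 and Apoe thus go against a reading of the whole set as macrophage genes.

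**Figure D1:**
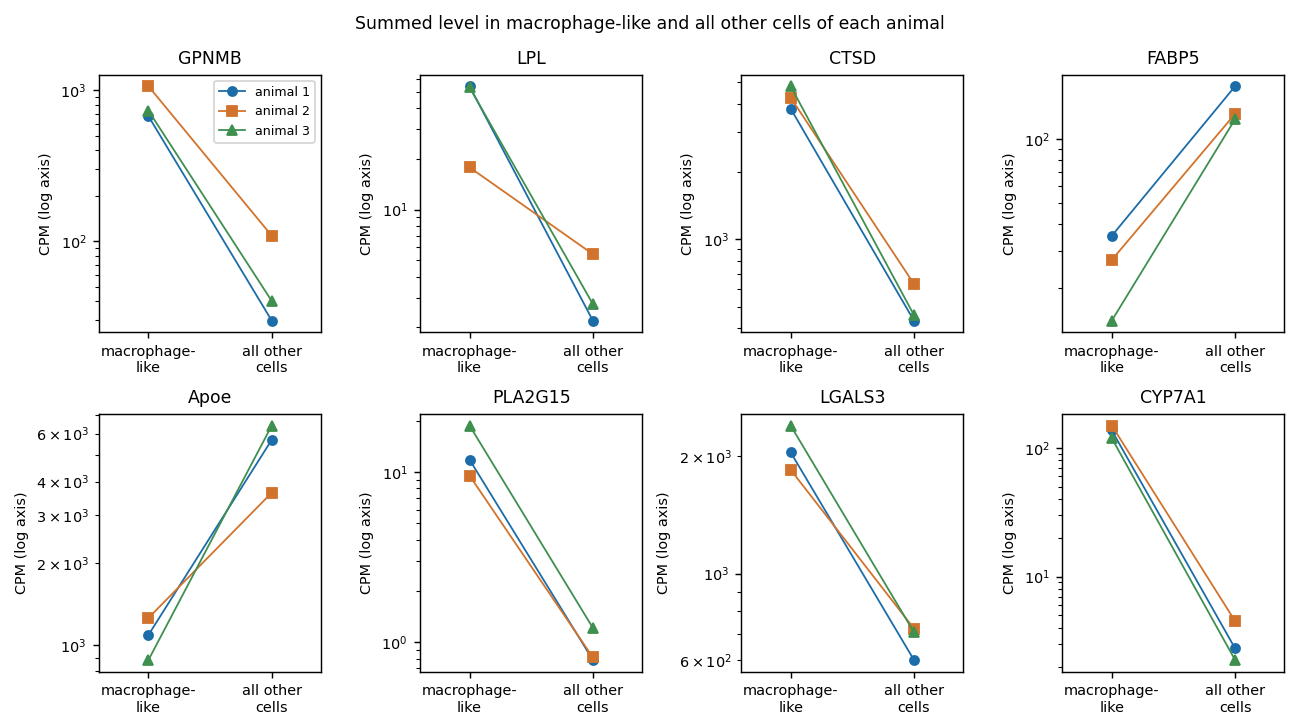
Summed level of each gene in macrophage-like cells (left) and all other cells (right) of each animal, in CPM on a log axis, with a line joining the values of an animal. Lines fall to the right for 6 genes and climb to the right for FABP5, at 25.5 against 143 CPM, and for Apoe, at 1077 against 5254 CPM.

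Among the lysosomal genes, CTSD encodes cathepsin D, an acid protease, PLA2G15 encodes the lysosomal phospholipase A2 that degrades phospholipids such as those of surfactant, and GPNMB encodes a membrane glycoprotein of lysosomes and melanosomes. CTSD stood at 3822, 4280 and 4809 CPM in macrophage-like cells, against 433, 631 and 459 CPM in all other cells. PLA2G15 stood at 11.8, 9.50 and 18.7 CPM in macrophage-like cells, against 0.785, 0.812 and 1.21 CPM in all other cells. GPNMB stood at 674, 1065 and 734 CPM in macrophage-like cells, against 29.7, 109 and 40.1 CPM in all other cells. For these 3 genes the groups did not overlap, and the log2 ratios within animals averaged 3.10 ± 0.32, 3.80 ± 0.22 and 4.0 ± 0.63 for CTSD, PLA2G15 and GPNMB (SD, n = 3). The macrophage-like cells held 82.4% of the CTSD, 89.1% of the PLA2G15 and 88.2% of the GPNMB UMIs of all kept cells.

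Of the genes that release and carry fatty acids, LPL, which encodes the lipase that frees fatty acids from circulating lipoproteins, followed the lysosomal genes. It stood at 54.1, 17.8 and 53.3 CPM in macrophage-like cells, against 2.19, 5.44 and 2.75 CPM in all other cells. Animal 2 had the smallest contrast, with the lowest macrophage-like level and the highest level elsewhere, and the log2 ratio averaged 3.54 ± 1.59 (SD, n = 3). FABP5, an intracellular fatty acid carrier, stood at 35.2, 27.2 and 14.1 CPM in macrophage-like cells, against 176, 131 and 123 CPM in all other cells, a log2 ratio of −2.57 ± 0.48 (SD, n = 3). Its groups did not overlap, and macrophage-like cells held 8.35% of its UMIs.

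Apoe, the lipoprotein component through which cells take up and export lipid, stood at 1091, 1259 and 882 CPM in macrophage-like cells, against 5697, 3639 and 6427 CPM in all other cells, a log2 ratio of −2.26 ± 0.68 (SD, n = 3). LGALS3 encodes galectin-3, a lectin that binds damaged lysosomes and marks many activated macrophages. It stood at 2049, 1848 and 2400 CPM in macrophage-like cells, against 601, 723 and 708 CPM in all other cells, the smallest ratio among the 6 higher genes (log2 1.63 ± 0.24, SD, n = 3). CYP7A1 stood at 137, 149 and 119 CPM in macrophage-like cells, against 2.77, 4.52 and 2.25 CPM in all other cells. Its log2 ratio of 5.47 ± 0.37 (SD, n = 3) was the largest of the 8, and macrophage-like cells held 95.8% of its UMIs.

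These ratios turn on the naming of clusters 7, 12 and 13. With the stricter naming rule the class held 3.34% of the CYP7A1 UMIs and unnamed clusters held 93.0%. The clusters were not changed by this, so the levels per cluster given next do not depend on the name. The values for cells by mitochondrial share are given with the distribution of CYP7A1 over cells.

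**Figure D2:**
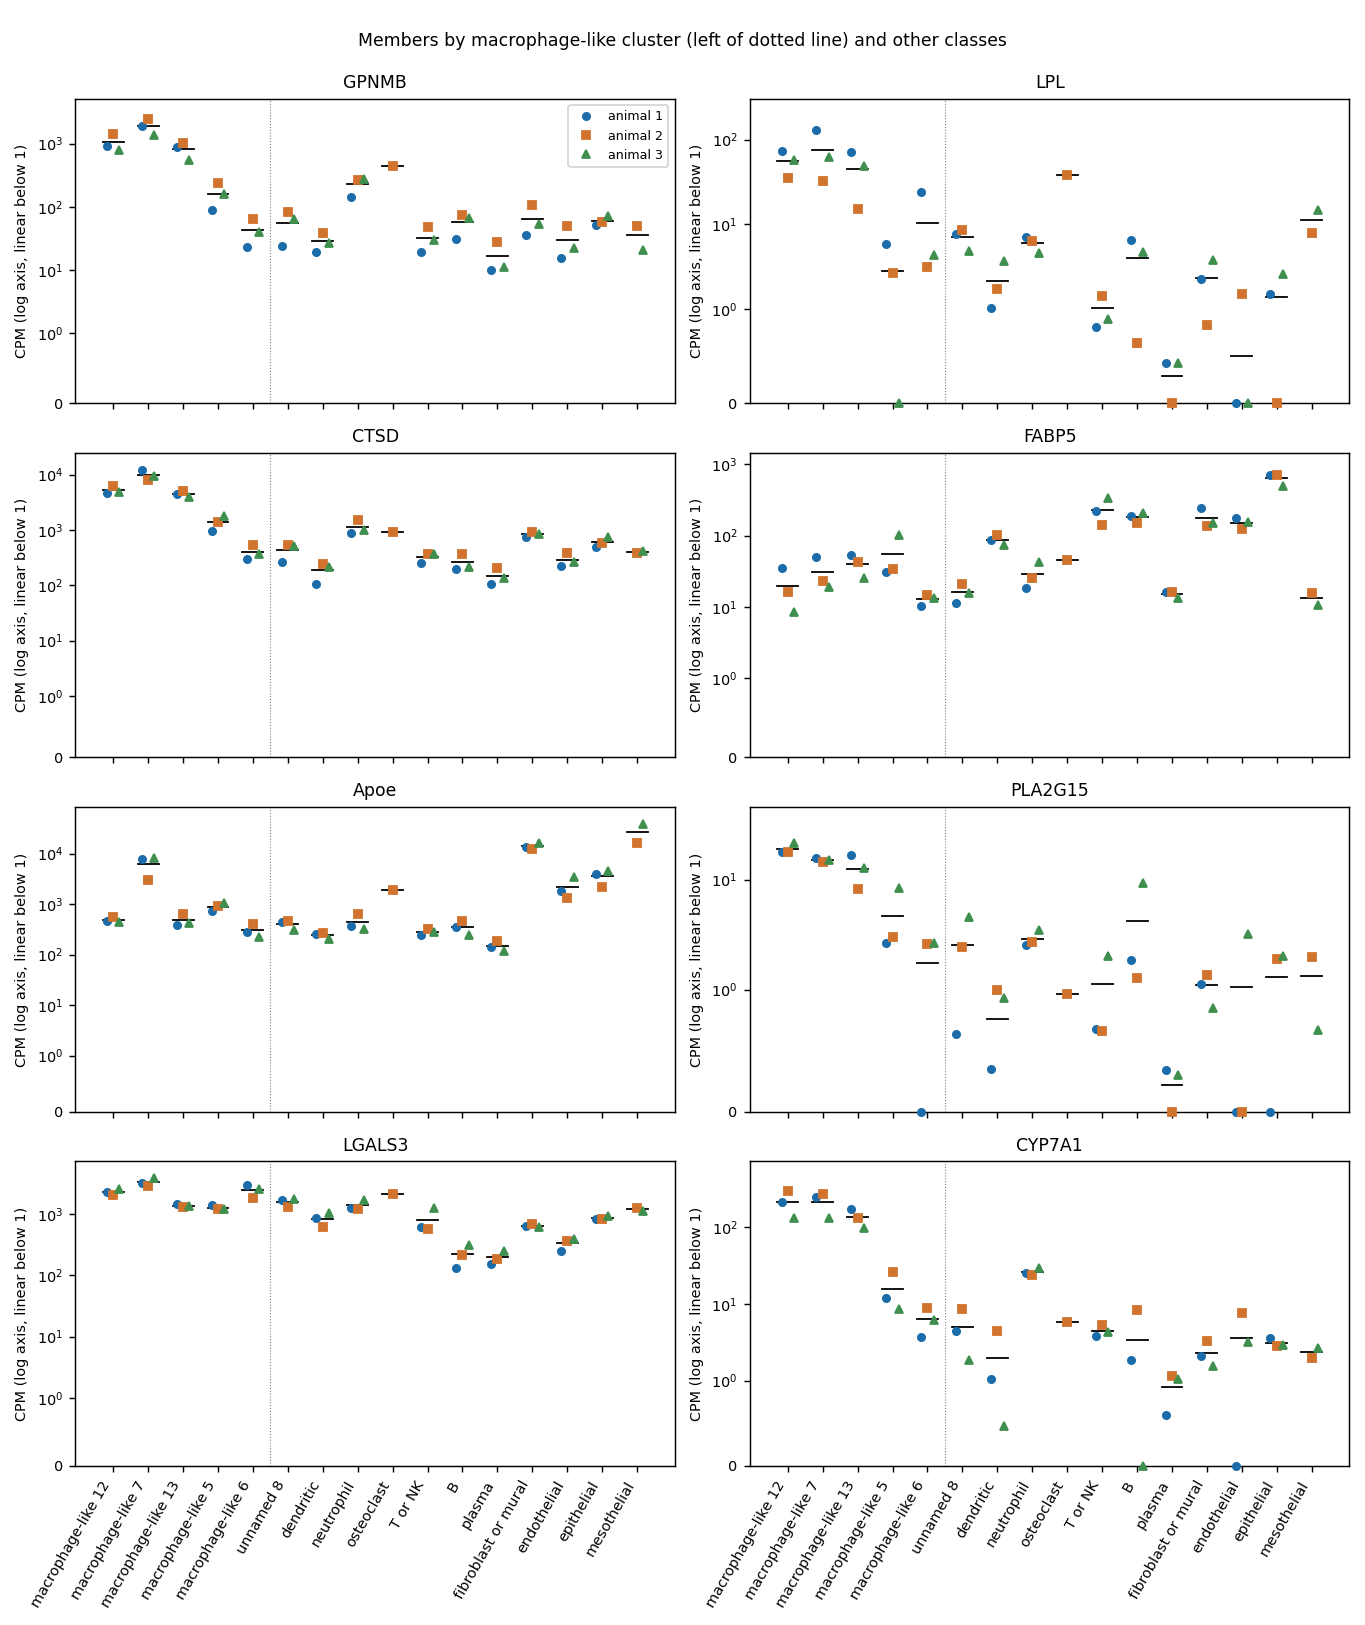
Level of each gene in CPM (log axis, linear below 1) in the 5 macrophage-like clusters, left of the dotted line, in unnamed cluster 8 and in the other classes, 1 point per animal where the animal had at least 30 cells there, with a bar at the mean. CYP7A1, GPNMB and CTSD are highest in clusters 12, 7 and 13, FABP5 in epithelial-like and Apoe in mesothelial-like and fibroblast or mural-like cells.

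The macrophage-like clusters differed among themselves, and GPNMB, CTSD, LPL, PLA2G15 and CYP7A1 shared an order in which clusters 7, 12 and 13 stood above clusters 5 and 6. Cluster 12 (2721 cells: 596, 407 and 1718) was led by TBXAS1, MMP7, SLC11A1 and RETN, with PPARG, PLIN2 and MRC1 among its leading genes. Cluster 7 (772 cells) was led by ATP6V1G3, TREML1, GPNMB and MYL10, and cluster 13 (534 cells) by the cell cycle genes UBE2C, CDCA3 and TOP2A. Cluster 5 (2068 cells) was led by P2RY13, CX3CR1 and IDO1 with interferon-induced genes, and cluster 6 (995 cells) by CFD and SORL1, with the monocyte genes VCAN and IL1B among its leading genes.

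Cluster 7 stood apart in its lysosomal genes. CTSD reached 12068, 7936 and 9394 CPM there, above every value of cluster 12, the next in order, at 4686, 6278 and 4953 CPM. GPNMB reached 1884, 2414 and 1379 CPM in cluster 7 and 902, 1436 and 777 CPM in cluster 12, so that these neighbours overlapped. Cluster 13 followed with a mean of 4498 ± 547 CPM of CTSD and 823 ± 249 CPM of GPNMB (SD, n = 3). Its lowest animal lay above the highest animal of the cluster that came next for either gene, which for GPNMB was neutrophil-like cluster 14 at 257 ± 76.5 CPM (SD, n = 3). Clusters 5 and 6 averaged 160 and 42.3 CPM of GPNMB. PLA2G15 was highest in cluster 12, at 17.7, 18.04 and 21.5 CPM, and there did not overlap with cluster 7, at 15.7, 14.6 and 15.0 CPM.

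LPL averaged 75.0 ± 49.9 CPM in cluster 7, 55.5 ± 19.6 CPM in cluster 12 and 44.8 ± 28.1 CPM in cluster 13 (SD, n = 3), and these ranges overlapped. Outside them its mean was at most 11.3 CPM, in the mesothelial-like cells, among clusters with at least 2 animals. The osteoclast-like cluster, nearly all from animal 2 (191 of 201 cells), had 38.3 CPM of LPL and 446 CPM of GPNMB in that animal. LGALS3 was spread more evenly, at 3307 ± 466 CPM in cluster 7, 2459 ± 602 CPM in cluster 6 and 2306 ± 252 CPM in cluster 12 (SD, n = 3). It also reached 1533 CPM in neutrophil-like cluster 14 and 1405 CPM in a T-like cluster, above the 1372 ± 82.0 CPM of cycling cluster 13.

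FABP5 and Apoe had their highest levels outside the macrophages. FABP5 reached 2180, 1164 and 1142 CPM in epithelial-like cluster 22, which is led by the surfactant gene SFTPC, and did not overlap with the cluster next in order. It averaged 384 ± 94.6 CPM (SD, n = 3) in T-like cluster 2, whose leading genes include FOXP3 and CTLA4, and 55.5 ± 40.0 CPM in cluster 5, its highest mean in a macrophage-like cluster. Apoe reached 22320, 12416 and 25264 CPM in fibroblast-like cluster 17 and a mean of 27403 CPM in the mesothelial-like cells of animals 2 and 3. Fibroblast or mural-like cells held 69.2% of all Apoe UMIs, against 10.1% in macrophage-like cells.

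Within the macrophages Apoe singled out cluster 7. It stood at 7931, 3036 and 8085 CPM there, against 467, 565 and 448 CPM in cluster 12, with no overlap. Clusters 5, 13 and 6 averaged 893, 484 and 305 CPM. Apoe and CYP7A1 thus parted at cluster 12, which was among the highest in CYP7A1 and low in Apoe.

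CYP7A1 stood at 213, 294 and 132 CPM in cluster 12, at 245, 265 and 131 CPM in cluster 7 and at 173, 130 and 96.7 CPM in cluster 13, and these 3 ranges overlapped. Cluster 5 had 11.8, 25.7 and 8.47 CPM and cluster 6 had 3.73, 8.91 and 6.14 CPM. Neutrophil-like cluster 14 had 31.4, 24.8 and 32.5 CPM, and T-like cluster 1 a mean of 6.86 ± 2.21 CPM (SD, n = 3). Clusters 12, 7 and 13 held 60.8%, 20.3% and 11.3% of all CYP7A1 UMIs.

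At equal depth the same order held. With each cell thinned to 2000 UMIs, and shallower cells left out, a CYP7A1 UMI was found in 9.10%, 11.4% and 11.9% of macrophage-like cells, 10.97% of 6794 in all, against 1.14% of 4117 T or NK-like cells, which should lack the enzyme. Without thinning the shares were 22.7% and 1.86%, at median depths of 9336 and 2748 UMIs. The thinned share was 20.7% in cluster 7, 18.3% in cluster 12 and 11.9% in cluster 13, but 1.82% in cluster 5 and 1.29% in cluster 6, close to that of T or NK-like cells. Neutrophil-like cells had 3.61% of 526, and 3.18% without thinning at a median of 1561 UMIs. Osteoclast-like cells had 0 of 194 after thinning, which allows a share of up to 1.55%, and 12.4% without it at a median of 26053 UMIs. These limits cover counting error only.

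Free RNA can give UMIs in cells that do not express a gene, and it carries the genes of a source in a fixed ratio. Macrophage-like cells held 16.1 CYP7A1 UMIs per 100 GPNMB UMIs, with 19.4 in cluster 12, 16.3 in cluster 13 and 11.1 in cluster 7. The 4 T or NK-like clusters held 11.3 to 14.6, from 12 to 38 CYP7A1 UMIs each, and neutrophil-like cluster 14 held 12.01. These values lie within the range of the macrophage-like clusters. Pooled, T or NK, B, plasma, dendritic, fibroblast, epithelial and endothelial-like cells held 6.37, below each of those clusters. By animal the pooled value was 7.64, 6.48 and 5.12. Whether the CYP7A1 counts in these cells came from free RNA or from expression was not tested, and no expression is claimed for them. Osteoclast-like cells held 1.27, from 30 CYP7A1 and 2370 GPNMB UMIs, below the fibroblast-like clusters at 3.21 and 5.25.

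Within the CYP7A1-rich clusters the gene was not spread evenly over cells. In cluster 12, 35.5% of cells had a CYP7A1 UMI, whereas 83.9% would have had one had every cell held the mean level of the cluster at its own depth. The same pair was 42.0% and 83.4% in cluster 7, and 32.0% and 82.8% in cluster 13. In cluster 6 it was 2.71% and 2.86%. The cells with a UMI averaged 7.09, 7.06 and 7.48 CYP7A1 UMIs in clusters 12, 7 and 13. For GPNMB in cluster 12 the pair was 69.9% and 98.7%, and for LPL 30.1% and 52.2%.

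Of the 7090 macrophage-like cells 5481 had 0 CYP7A1 UMIs, 382 had 1, 441 had 2 to 4, 393 had 5 to 9 and 393 had 10 or more, with a maximum of 63. Cells with 5 or more made up 9.63%, 11.2% and 12.1% of the macrophage-like cells of the 3 animals and held 87.8%, 87.5% and 80.3% of the CYP7A1 UMIs of the class.

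**Figure D3:**
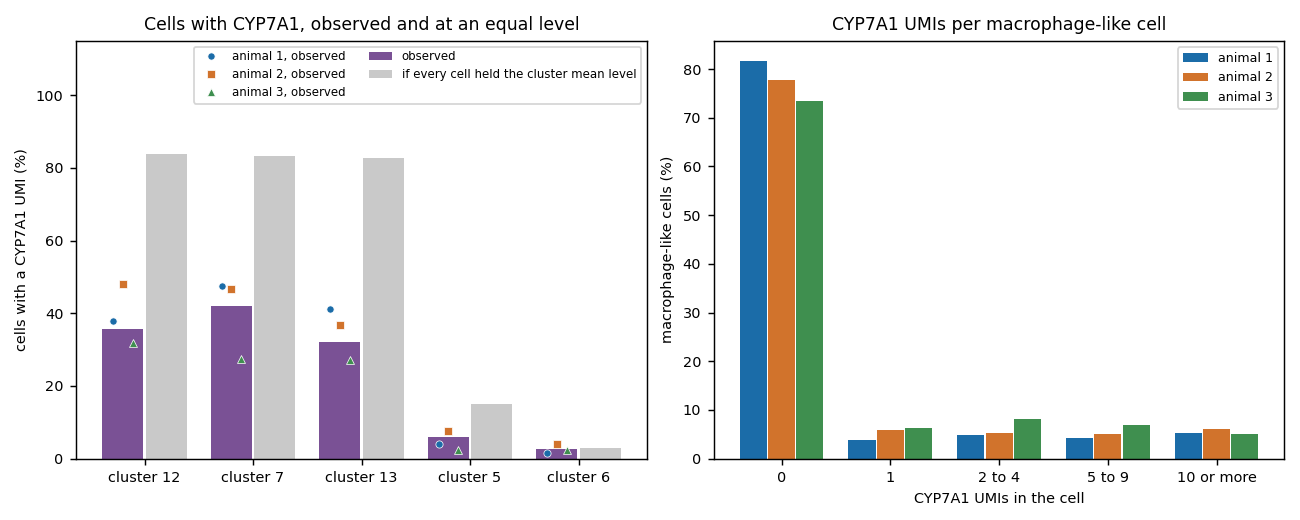
Left, percentage of cells with a CYP7A1 UMI in each macrophage-like cluster as observed (purple, with points for each animal) and as computed if every cell held the cluster mean level (grey). Right, percentage of the macrophage-like cells of each animal by their number of CYP7A1 UMIs, where cells with 5 or more are 9.63%, 11.2% and 12.1% of cells.

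CYP7A1 also went with the mitochondrial share of the cells, which climbs in damaged cells. Among macrophage-like cells it stood at 63.7 CPM where mitochondrial genes took under 5% of UMIs, at 113 CPM from 5% to 10% and at 242 CPM from 10% to 20%. GPNMB stood at 689, 714 and 1185 CPM in these bins. With the same clusters and only cells under 10%, CYP7A1 averaged 94.9 ± 9.96 CPM in macrophage-like cells, against 2.89 ± 1.31 CPM in all other cells (SD, n = 3), a log2 ratio of 5.13. The ratios of the other 7 genes kept their sign under this limit, from −2.77 for FABP5 to 3.93 for GPNMB. What part RNA quality had in the level of CYP7A1 was not tested.

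Macrophage-like cells with a CYP7A1 UMI were then compared with cells without one, to ask which lipid genes go with the enzyme. Cells of each animal were paired on total UMIs, giving 318, 521 and 655 pairs, at median depths of 15259, 14835 and 15491 UMIs in cells with a CYP7A1 UMI and 15258, 14851 and 15451 UMIs in cells without. Median mitochondrial shares were 9.75%, 7.20% and 9.88% in cells with a CYP7A1 UMI, against 6.31%, 5.71% and 7.42% in cells without. Pairs could come from different clusters, so fitted differences from a second pairing, on UMIs and cluster, are given as well.

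The other 7 genes were higher beside CYP7A1 in 3 of 3 animals, except FABP5. Of the 11141 genes tested in this contrast 10.3% were called higher and 8.38% lower by edgeR. The share of all genes higher in 3 of 3 animals, or without overlap, is a different measure and is not given here. CTSD stood at 9008, 8999 and 9817 CPM in cells with a CYP7A1 UMI, against 1301, 2093 and 2124 CPM in cells without. GPNMB stood at 1631, 2256 and 1471 CPM in cells with a CYP7A1 UMI, against 195, 501 and 306 CPM in cells without. PLA2G15 stood at 27.5, 19.7 and 37.8 CPM in cells with a CYP7A1 UMI, against 4.83, 5.95 and 9.23 CPM in cells without. For these 3 lysosomal genes every animal's cells with the UMI lay above every animal's cells without, and the fitted log2 differences were 2.39 ± 0.13, 2.51 ± 0.15 and 2.07 ± 0.14 for CTSD, GPNMB and PLA2G15 (SE, n = 3), or 2.01, 1.97 and 1.85 when pairs also shared a cluster.

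Apoe stood at 2432, 2045 and 1690 CPM in cells with a CYP7A1 UMI, against 436, 917 and 374 CPM in cells without, a fitted log2 difference of 1.96 ± 0.20 (SE, n = 3), or 1.61 when pairs also shared a cluster. Low in macrophages as a class, Apoe was thus higher in those of them with the enzyme. LGALS3 stood at 2740, 2510 and 3259 CPM in cells with a CYP7A1 UMI, against 1581, 1439 and 1750 CPM in cells without, the smallest fitted difference among the genes without overlap (log2 0.86 ± 0.08, SE, n = 3, or 0.62 within clusters). LPL stood at 117, 31.7 and 80.7 CPM in cells with a CYP7A1 UMI, against 26.7, 8.86 and 47.5 CPM in cells without, and overlapped across animals (log2 1.47 ± 0.21, SE, n = 3, or 1.02 within clusters). FABP5 stood at 52.8, 25.9 and 18.7 CPM in cells with a CYP7A1 UMI, against 14.9, 29.5 and 8.75 CPM in cells without, and was lower beside CYP7A1 in animal 2 (log2 0.83 ± 0.28, SE, n = 3, or 1.23 within clusters).

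Within clusters 12 and 7 CTSD and Apoe went in the same direction. These groups were split by CYP7A1 count only and were not paired on total UMIs or mitochondrial share. In cluster 12, cells with 2 or more CYP7A1 UMIs (192, 164 and 432) had 8915, 9940 and 10159 CPM of CTSD, against 1361, 2509 and 2238 CPM in cells with 0. In cluster 7, whose CTSD level was the highest of the clusters, the values were 14806, 10714 and 16874 CPM in cells with 2 or more, against 6563, 4500 and 5351 CPM in cells with 0. Apoe was at 754, 674 and 795 CPM in cluster 12 cells with 2 or more, against 245, 403 and 284 CPM in those with 0. In cluster 7 it was at 9069, 4162 and 21424 CPM in cells with 2 or more, against 5592, 1795 and 2183 CPM in cells with 0, and there the groups overlapped across animals.

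With all cells thinned to 2000 UMIs, GPNMB was found in 81.1%, 85.4% and 80.6% of macrophage-like cells with a CYP7A1 UMI, against 20.4%, 34.2% and 35.4% of those without. These shares pool all macrophage-like clusters and were not paired on cluster, so they also carry differences between clusters. CTSD was found in 96.4%, 98.5% and 99.4% of cells with a CYP7A1 UMI, against 56.6%, 74.7% and 73.0% of those without. PLA2G15 was found in 4.14%, 5.99% and 6.47% of cells with a CYP7A1 UMI, against 1.54%, 0.823% and 2.44% of those without. FABP5 differed little, at 8.28%, 4.12% and 2.27% of cells with a CYP7A1 UMI, against 4.44%, 4.21% and 2.44% of those without, lower in 2 of 3 animals. As a background, GPNMB was found in 6.83% of thinned T or NK-like cells.

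**Figure D4:**
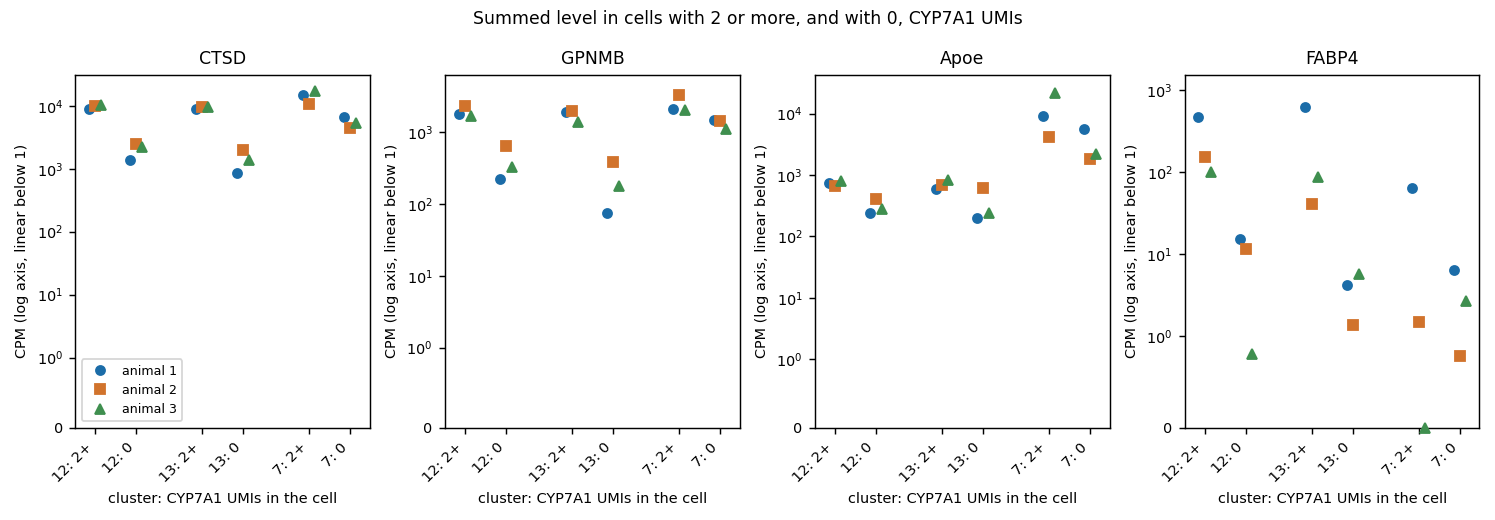
Summed level of CTSD, GPNMB, Apoe and the fatty acid carrier gene FABP4 in CPM (log axis, linear below 1), in cells with 2 or more (2+) and with 0 CYP7A1 UMIs in clusters 12, 13 and 7, with 1 point per animal. The groups were not paired on total UMIs. CTSD in cluster 12 is at 8915 to 10159 CPM in cells with 2 or more and at 1361 to 2509 CPM in cells with 0.

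Across all genes, the quasi-likelihood test of edgeR, with p-values adjusted after Benjamini and Hochberg, was run on the summed counts of the pairs. It called 1144 genes higher and 934 lower in cells with a CYP7A1 UMI, with a median log2 difference of 0.00 over all genes. With pairs that also shared a cluster it called 925 of 10778 higher (8.58%) and 878 lower (8.15%), and 837 of the higher and 644 of the lower genes were called both ways. The cells were split by a gene from the same counts, and the macrophage-like class rests on clusters of the same counts, so these p-values are not calibrated. The 8 genes themselves are given no p.

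Genes of lysosomal lipid breakdown and sterol egress were called higher almost throughout beside CYP7A1. Of 17 tested genes of 24 listed, 16 passed as higher and 0 as lower, with a median log2 difference of 0.65. None was lower at an unadjusted p under 0.05, and DESeq2 called 13 higher and 0 lower. They include PLD3, a lysosomal exonuclease of the phospholipase D family (1.17 ± 0.11, SE, edgeR Benjamini-Hochberg adjusted p = 7.3e-05), MCOLN1, a calcium channel of lysosomes (1.02 ± 0.09, adjusted p = 5.9e-05), and NPC1, which moves cholesterol out of lysosomes (0.96 ± 0.11, adjusted p = 2.4e-04). CTSB, cathepsin B, rose by 0.90 ± 0.10 (adjusted p = 1.8e-04), and each of these was higher in 3 of 3 animals. PLBD1 was at 0.95 ± 0.37 and did not pass (adjusted p = 0.10). The count was 17 when pairs shared a cluster and 16 with only cells under 10% mitochondrial counts, but 11 without replicate 1 and 4 of 16 with clusters redrawn on cells under 10% mitochondrial counts (median 0.50). The redrawn macrophage-like class held 13.7% of the CYP7A1 UMIs and unnamed clusters 81.7%, which left 40, 89 and 63 pairs. Without the animal as a replicate block edgeR called 0, with 11 higher at an unadjusted p under 0.05 and the same median of 0.65.

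Fatty acid genes moved less uniformly: of 16 tested, 6 passed as higher and 1 as lower, with a median of 0.36. FABP4, a fatty acid carrier of fat cells and alveolar macrophages, stood at 270, 58.8 and 79.8 CPM in cells with a CYP7A1 UMI, against 0.773, 2.55 and 0.856 CPM in cells without. Its fitted log2 difference of 6.28 ± 0.32 (SE, edgeR adjusted p = 3.6e-06) was 5.19 when pairs shared a cluster, and its groups did not overlap. Of the 4383 FABP4 UMIs of all kept cells 89.6% were in macrophage-like cells with 2 or more CYP7A1 UMIs, which are 4.99% of cells (90.4%, 83.2% and 91.4% of FABP4 UMIs by animal). FABP4 was nevertheless found in 16.0% of the cluster 12 cells with 2 or more. The share of all UMIs in cells with 2 or more, the like measure, is not given here. Macrophage-like cells with a CYP7A1 UMI were deeper, at a median of 15947 UMIs, against 7721 in those without. In cluster 7 cells with 2 or more CYP7A1 UMIs it was at 65.0, 1.501 and 0 CPM, against 6.42, 0.780 and 2.69 CPM in cells with 0. The droplet coat gene PLIN2 (0.76 ± 0.07, edgeR adjusted p = 8.0e-05) and CPT1A, which admits fatty acids to mitochondria (0.67 ± 0.14, adjusted p = 0.0083), rose, and FABP3, the heart-type carrier, fell by 0.95 ± 0.18 (adjusted p = 0.0047). The call of FABP3 was lost when pairs shared a cluster (adjusted p = 0.23).

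Of 11 cholesterol efflux and LXR genes 7 passed as higher and 1 as lower, with a median of 0.60, while DESeq2 called 3 higher and 1 lower. Without replicate 3 the efflux count was 3 higher (median 0.34), and with redrawn clusters it was 1 higher and 0 lower of 10 (median 0.16, with 0 lower at an unadjusted p under 0.05). NCEH1, which hydrolyses cholesteryl esters, and CYP27A1, sterol 27-hydroxylase, each rose by 1.22 ± 0.15 (SE, edgeR adjusted p = 4.3e-04 and 3.4e-04), and the phospholipid transfer gene PLTP by 0.68 ± 0.16 (adjusted p = 0.015). CH25H, cholesterol 25-hydroxylase, fell by 1.32 ± 0.12 (adjusted p = 6.9e-05). NR1H3, which encodes LXR alpha, was at 0.90 and did not pass (adjusted p = 0.065). Of 6 uptake receptors 3 passed as higher and 1 as lower, with a median of 0.30. CD36 rose by 1.15 ± 0.09 and the HDL receptor gene SCARB1 by 0.90 ± 0.11 (edgeR adjusted p = 2.8e-05 and 2.9e-04). MARCO, a scavenger receptor of alveolar macrophages, stood at 0.385, 2.78 and 0.190 CPM in cells with a CYP7A1 UMI, against 24.9, 8.98 and 0.285 CPM in cells without (edgeR adjusted p = 0.0053), and its call was lost with only cells under 10% mitochondrial counts (adjusted p = 0.19).

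Of 11 transcription factors of lipid and lysosome genes 5 passed as higher and 0 as lower, with a median of 0.13, 1 was lower at an unadjusted p under 0.05, and DESeq2 called 3 higher and 0 lower. PPARG, a nuclear receptor that directs lipid genes of alveolar macrophages and fat cells, stood at 114, 87.2 and 112 CPM in cells with a CYP7A1 UMI, against 50.6, 31.7 and 66.0 CPM in cells without (log2 1.12 ± 0.12, SE, edgeR adjusted p = 1.4e-04). BHLHE41 (1.76 ± 0.22), CEBPA (1.27 ± 0.25) and MITF (0.91 ± 0.13), the last a regulator of lysosomal genes, rose as well (edgeR adjusted p = 4.3e-04, 0.0066 and 0.0011). TFEB and TFEC, from the same list, were at −0.003 and −0.36 and did not pass (edgeR adjusted p = 0.99 and 0.074). Of 10 lipid-associated macrophage genes 7 passed as higher and 1 as lower, with a median of 1.09. They include FABP4, ATP6V0D2 (2.25 ± 0.26), a subunit of the lysosomal proton pump, and CHIT1 (2.11 ± 0.42), a chitinase (edgeR adjusted p = 2.6e-04 and 0.0065), while MMP12, macrophage elastase, fell by 0.90 ± 0.13 (adjusted p = 8.6e-04). The call of SPP1, osteopontin (1.96 ± 0.56, adjusted p = 0.036), was lost when pairs shared a cluster (adjusted p = 0.29).

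These list counts shrank in a fit without the animal as a replicate block. edgeR then called 1 efflux, 1 fatty acid, 1 uptake and 1 lipid-associated macrophage gene higher, and 0 transcription factors and 0 bile acid genes. At an unadjusted p under 0.05 that fit had 3 efflux, 4 fatty acid, 3 uptake, 5 lipid-associated macrophage, 4 transcription factor and 2 bile acid genes higher. With redrawn clusters 2 fatty acid genes of 14, 2 transcription factors of 9, 1 uptake receptor of 4 and 4 lipid-associated macrophage genes of 8 passed as higher.

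**Figure D5:**
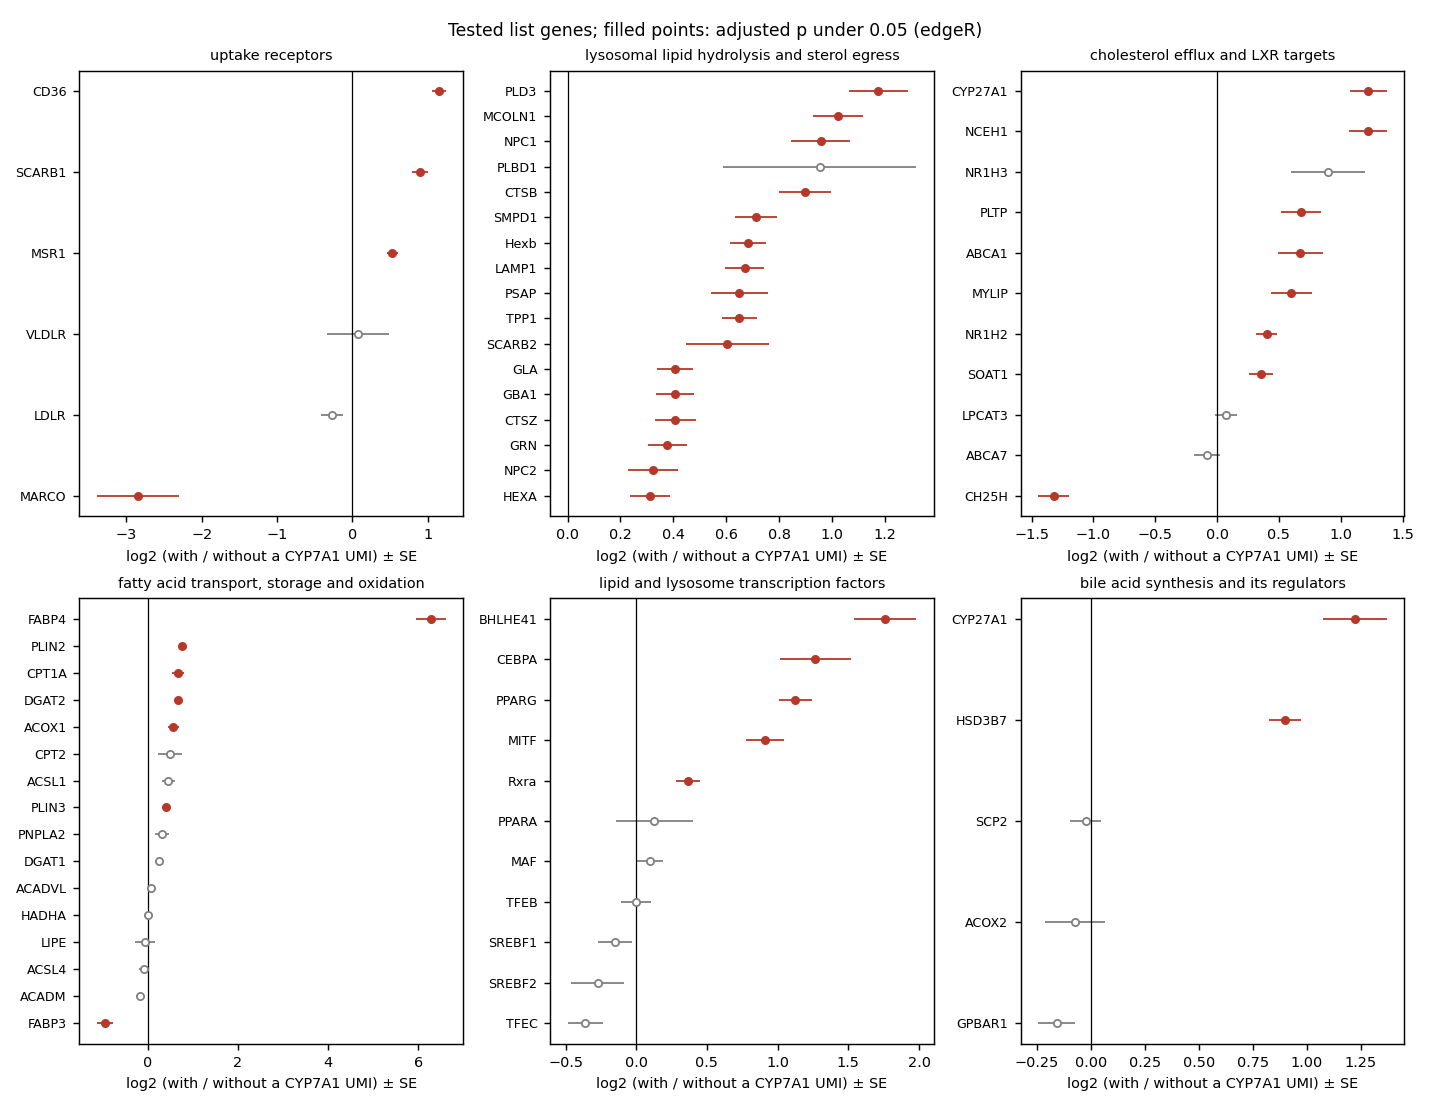
Fitted log2 ratio (± SE) of macrophage-like cells with over cells without a CYP7A1 UMI for the tested genes of 6 lists, n = 3 animals, with filled points where edgeR's adjusted p was under 0.05. Of the 17 lysosomal genes 16 are filled, all to the right of 0, and FABP4 lies farthest right at 6.28.

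The rest of the bile acid route was sparse. Of 22 listed genes 15 were measured and 5 had enough counts to be tested beside CYP7A1, with 2 called higher, 0 lower and a median of −0.02. DESeq2 gave the same counts, and none was lower at an unadjusted p under 0.05. These were CYP27A1 and HSD3B7, which follow CYP7A1 or start the alternative route. HSD3B7 stood at 58.0, 88.9 and 75.1 CPM in cells with a CYP7A1 UMI, against 31.5, 49.99 and 40.1 CPM in cells without (log2 0.90 ± 0.07, SE, edgeR adjusted p = 3.1e-05). HNF4A, the hepatocyte factor that drives CYP7A1 in liver, had 1 UMI in all kept cells, NR1H4, the bile acid receptor FXR, had 60, and NR0B2, its target, had 57.

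Most measured markers of hepatocytes, the usual source of CYP7A1, were at or near 0 CPM in cluster 12, except Hp and TF. Cells with and without a CYP7A1 UMI were not separated for these cluster levels. ALB, albumin, was not seen (0 UMIs over 24580 cells, a limit of 0.0131 CPM). In cluster 12 APOB, AMBP, CYP2E1, CPS1 and SERPINA1 were at 0 CPM, and APOH, TTR and Apoa1 were at 0.0514, 0.0257 and 0.746 CPM. In cluster 7 TTR was at 2.06 CPM, against 0.264 CPM outside macrophage-like cells. APOB, CYP2E1 and Apoa1 stood at 0.103, 0.103 and 0.722 CPM in cluster 7, and APOH, AMBP, CPS1 and SERPINA1 at 0 CPM. Hp, haptoglobin, was at 20.6 CPM in cluster 12, against 758 CPM outside macrophage-like cells, and TF at 13.8 CPM, against 9.0 CPM outside them. Of the 14 listed genes 11 were measured and 2 were tested beside CYP7A1, and TF, transferrin, rose by 1.76 ± 0.16 (SE, edgeR adjusted p = 6.4e-05). In RefSeq the nearest genes with a name on either side of Cyp7a1 are Ubxn2b and Sdcbp. An entry without a gene name, LOC101701330, comes between Cyp7a1 and Sdcbp and lies inside or after Cyp7a1. Its part in the CYP7A1 counts was not tested. SDCBP was at 0.40 ± 0.08 (SE) beside CYP7A1 and passed (edgeR adjusted p = 0.0055), and UBXN2B was at −0.10 and did not (adjusted p = 0.81).

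Outside the lists, the called genes of largest difference in 3 of 3 animals included PALMD, at 14.1, 8.95 and 12.6 CPM in cells with a CYP7A1 UMI, against 0.193, 0.364 and 0.856 CPM in cells without (log2 4.43 ± 0.30, SE, edgeR adjusted p = 1.2e-05). USH1C, BRINP2, ARHGEF28, ITGA7, MUSTN1, SLC15A2, SHROOM1, ITIH4 and PRG4 followed, at 3.84 to 3.37. PRG4, a lubricant glycoprotein, is also on the list of mesothelial markers, whose summed level was 46.4, 34.9 and 37.8 CPM in cells with a CYP7A1 UMI, against 2.51, 5.82 and 8.18 CPM in cells without. MSLN, the defining mesothelial marker, was at 0.578, 1.09 and 1.52 CPM in cells with a CYP7A1 UMI, against 0.580, 2.43 and 0.952 CPM in cells without. The largest lower genes were the myeloid granule genes MPO (−5.06 ± 0.31), ELANE (−4.98 ± 0.20) and PRTN3 (−4.95 ± 0.21; SE, edgeR adjusted p = 8.8e-06, 1.4e-06 and 1.4e-06). CITED4, CLDN1, CLEC4G, ACKR2, ADGRG1, CXCL11 and PTGS1 followed, at −3.73 to −2.15.

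Markers of several other cell types moved with this comparison, and their part in it was not tested. The summed level of neutrophil markers, from 6 of 10 listed genes, was 43.1, 56.0 and 66.4 CPM in cells with a CYP7A1 UMI, against 157, 99.9 and 152 CPM in cells without, and 5, 33 and 24 cells with a CYP7A1 UMI, against 8, 25 and 36 without, held an MPO, ELANE or PRTN3 UMI. Mast or basophil markers summed to 272, 188 and 264 CPM in cells with a CYP7A1 UMI, against 394, 259 and 362 CPM in cells without, and dendritic markers to 210, 281 and 218 CPM, against 295, 347 and 267 CPM. Endothelial markers summed to 122, 110 and 153 CPM in cells with a CYP7A1 UMI, against 89.9, 71.6 and 148 CPM in cells without. Few genes make up these sums. In cluster 12 TEK and EGFL7 stood at 120 and 31.8 CPM, and the other measured endothelial markers at 1.44 CPM or less. HPGDS and FCER1A stood there at 283 and 19.3 CPM, and the other measured mast or basophil markers at 0.488 CPM or less. TEK and HPGDS are among the leading genes of cluster 12. Without the cells with granule genes 14 of 17 lysosomal genes passed as higher and FABP4 was at 6.19. The 11 measured macrophage markers summed to 12243, 10905 and 11444 CPM in cells with a CYP7A1 UMI, against 11158, 11824 and 9319 CPM in cells without.

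Set against all other cells, macrophage-like cells had most of the tested lysosomal and fatty acid genes called higher, while the bile acid genes were split. The same test called 3499 genes higher and 4501 lower, with a median of −0.03 over all genes. Of 17 lysosomal genes 15 passed as higher and 1 as lower (median 1.57), such as CTSZ (2.70 ± 0.17) and PSAP, the saposin precursor (2.23 ± 0.15; SE, edgeR adjusted p = 3.3e-04 and 3.8e-04). Of 17 fatty acid genes 11 passed as higher and 2 as lower (median 0.69), with FABP4 at 5.01 ± 0.19 and CIDEC, a droplet fusion gene, at −3.35 ± 0.41 (edgeR adjusted p = 3.0e-04 and 0.0018). Of 12 transcription factors 6 passed as higher and 0 as lower, also at an unadjusted p under 0.05 and with DESeq2 (median 0.70), led by PPARG at 4.18 ± 0.16 (adjusted p = 3.0e-04).

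Efflux and LXR genes passed as higher in 7 and lower in 3 of 12 (median 0.68). NR1H3 rose by 2.68 ± 0.37 and ABCA1, the cholesterol exporter, by 1.68 ± 0.23, while APOC2 fell by 2.82 ± 0.38 (SE, edgeR adjusted p = 0.0027, 0.0025 and 0.0025). Uptake receptors passed as higher in 4 and lower in 2 of 7 (median 0.79), with CD36 at 3.49 ± 0.41 and MSR1 at 3.30 ± 0.19 (adjusted p = 0.0016 and 3.1e-04). Lipid-associated macrophage genes passed as higher in 5 and lower in 2 of 11 (median 0.89), but with clusters redrawn on cells under 10% mitochondrial counts in 1 and 2 of 10, with the median turned to −0.35. Redrawn clusters gave 9 higher lysosomal genes of 17, 7 higher fatty acid genes of 17, 4 higher transcription factors of 12 and 4 higher and 4 lower efflux genes of 12. After redrawing, 52.2% of the macrophage-like cells under that limit kept the name, with 13.7% of the CYP7A1 UMIs. Bile acid genes passed as higher in 3 and lower in 3 of 10 (median −0.06), with GPBAR1, a bile acid receptor at the cell surface, at 3.24 ± 0.19 and BAAT, which conjugates bile acids, at −3.71 ± 0.57 (adjusted p = 3.2e-04 and 0.0039). Hepatocyte markers passed as lower in 4 of 6 and higher in 0, also at an unadjusted p under 0.05 and with DESeq2 (median −3.25). Of the 5 genes that lie beside CYP7A1 in mammals 3 passed as higher and 2 as lower (median 0.71). CYP27A1 fell by 0.84 ± 0.21 in macrophage-like cells against all others (adjusted p = 0.019), although it was higher beside CYP7A1.

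Likeness over cell groups was measured with Spearman's rho on log2 CPM over 69 sums of a cluster in an animal, among 8451 genes, as a description, since these sums share animals, libraries and depth. CYP7A1 was most like TBCK (0.75), CTSD (0.72), GPR137B (0.70), PLA2G7 (0.70) and TBC1D2 (0.70), followed by MICAL1, GPNMB, C1QB, CD300LF and CAT at 0.69 to 0.68. GPNMB and CTSD were each other's nearest gene (0.88). Both also had MYL10, RAB20 and the lysosomal sialidase gene NEU1 among their nearest 5. LPL was nearest to QSOX1 (0.71), PLA2G15 to SLC11A1, a metal transporter of phagosomes (0.72), and LGALS3 to C15orf62 (0.78). Apoe was nearest to IL33 (0.89) and FABP5 to ZRANB3 (0.75). Between CYP7A1 and the other genes of the set rho was 0.69 with GPNMB, 0.61 with LGALS3, 0.53 with LPL, 0.52 with PLA2G15, 0.28 with Apoe and −0.22 with FABP5.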

How the data were processed

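The deposited matrices hold raw counts of UMIs per gene and cell; the authors made them with Cell Ranger 7.1.0, per the file headers (8.0.0, per the submitters' processing notes). The genome build is not given in the sources used here. A further edit that the labels give for all 3 animals is not reported here. Cells with at least 1000 UMIs, 500 genes, under 20% mitochondrial counts and a Scrublet score under 0.2 were kept. Scrublet made 0 automatic doublet calls, so its caller did not work, and the score limit removed 464 cells.

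Cells were clustered with scanpy 1.11.5 (2000 variable genes without the 8 genes and the lipid lists, 30 principal components, 20 neighbours, Leiden resolution 1). A cluster took the cell type of highest score, the mean over its measured markers of log2(CPM + 1) less the median over clusters. That score had to reach 1, with at least 3 markers found in at least 10% of cells. No other type could have more markers among the leading genes of the cluster, and bone genes among them could bar a name. A demand that no other cell type reach a set part of the score was dropped after the clusters had been seen. Members and lists were chosen with earlier results of these data known.

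For tests, counts summed per animal went into edgeR 4.0.16 (TMM factors, quasi-likelihood fit, low counts filtered, animal as block, Benjamini-Hochberg threshold 0.05) and with DESeq2 1.42.0 as an alternative. Both sums of a pair come from the same animal, which is where the pairing comes from. With animal as block, the p-values measure how much the difference within an animal varies over the 3 animals. Cells with a CYP7A1 UMI were paired with cells without one within 0.1 log2 units of total UMIs. The scripts were tested on simulated data. Named genes are the 8, list genes (up to 4 of largest difference among those called; others named were chosen after their values were seen), the 10 called genes of largest difference in each direction outside the lists and the nearest genes by rho, among genes with at least 200 UMIs over groups of at least 30 cells.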

Additional observations from a re-analysis of the deposited data

Results flagged for a closer look

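CYP7A1 also appeared in data outside every comparison. The 4349 barcodes with 20% or more mitochondrial counts, which the filter left out, held 2057 CYP7A1 UMIs (559, 632 and 866 in animals 1, 2 and 3). There CYP7A1 stood at 102, 146 and 84.7 CPM and GPNMB at 417, 627 and 458 CPM, and a CYP7A1 UMI was found in 14.1%, 13.2% and 16.3% of these barcodes. None of the 3 libraries is a control, and which cells the barcodes came from was not tested.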

How the results depend on the processing

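The naming of clusters 7, 12 and 13 as macrophage-like decided most levels of the class. Under the stricter naming the log2 ratio of macrophage-like over all other cells was −2.14 for CYP7A1, −1.60 for GPNMB, −2.07 for LPL, −0.93 for CTSD, −0.73 for PLA2G15, −1.66 for FABP5 and 0.56 for LGALS3. With clusters redrawn on cells under 10% mitochondrial counts, the class held 13.7% of the CYP7A1 UMIs and unnamed clusters 81.7%, and the ratio was 0.073 for CYP7A1, 0.030 for GPNMB, 0.27 for LPL, 0.17 for CTSD, 0.40 for PLA2G15, 0.69 for LGALS3 and −3.48 for Apoe. With the mean of shares per cell it was 4.14 for CYP7A1, 3.28 for GPNMB, 2.71 for CTSD, 2.90 for PLA2G15 and 1.36 for LGALS3. For CYP7A1 it was 4.37 in thinned cells, 4.72 without doublet removal and 5.09 at Leiden resolution 2. For LPL it was 2.64 with a minimum of 2000 UMIs, 2.58 at Leiden resolution 2 and 3.00 to 4.45 with an animal left out (4.45 without replicate 2). For PLA2G15 it was 3.10 in thinned cells, 3.35 with a minimum of 2000 UMIs, 3.53 without doublet removal, 3.36 at Leiden resolution 2 and 3.58 in the same clusters with only cells under 10% mitochondrial counts.

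The count of genes higher in macrophage-like cells, 3499, was 2279 with clusters redrawn under 10% mitochondrial counts and 1664 to 3705 with an animal left out (1664 without replicate 1), and the lower count was 3174 to 4005. Beside CYP7A1 the 1144 higher genes became 541 with DESeq2, 134 with redrawn clusters, 69 without the replicate block, 20 under the stricter naming, where only replicates 1 and 2 had enough cells, and 715 to 1103 with an animal left out. The 934 lower genes became 443 with DESeq2, 1499 without matching, 56 with redrawn clusters, 21 without the replicate block, 7 under the stricter naming and 610 to 1110 with an animal left out.

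Of 1207 values of 80 named genes under alternatives 1091 kept direction and side of the threshold, 108 lost the threshold and 8 reversed. Against all other cells FABP4 was at −0.034 with redrawn clusters and, under the stricter naming, FABP4 at −2.78, PLIN2 at −0.67, PPARG at −1.77 and MMP12 at −0.21. Beside CYP7A1, PLTP was at −0.21 and FABP3 at 0.22 with redrawn clusters, and FABP3 at 0.13 under the stricter naming. Without the replicate block 30 values of named genes lost the threshold. The cause of these changes was not tested. The stricter naming, the limit on mitochondrial counts in the same clusters and the removal of cells with granule genes were chosen after seeing the data. Counts near the depth of 1 UMI per cell limit statements on single cells, PLA2G15 above all.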
